A study of Ovis aries with 12 samples.

Results

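The 9 genes described here serve the making, wiring and protection of mitochondria: PPARGC1A, NRF1, COX15, VDAC1, UCP3, SLC25A33, GLUD1, ENDOG and SOD1. The set was chosen by the cortisol minus control values of these same arrays, and its probes were then taken by gene name or sheep RefSeq accession. That match gave 11 probes of 8 genes. SOD1 and 2 further PPARGC1A probes were added through the array's descriptions, and 1 GLUD1 probe through its Entrez number, which made 15 probes of 9 genes out of 683 measured named genes. Because the values of this comparison chose the genes, their cortisol and control values are a description, with no test.

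RNA came from a hind-limb muscle, the biceps femoris, of 12 singleton sheep fetuses near term, labelled as 140 days of gestation. In the cortisol group, 6 fetuses came from ewes infused with 1 mg/kg/day of cortisol (Solu-Cortef) from about day 115 of pregnancy until necropsy, and the 6 control fetuses came from ewes given vehicle. Once labour had started, ewes of both groups went to necropsy between days 139 and 144, and per the labels 7 ewes were in each arm. The hormone was given to the mother, and no fetal hormone value was used here. Each fetus has 1 array, as far as the labels say. The treatment text of the labels names the left ventricular wall of the heart, whereas their titles and tissue fields name the biceps femoris. That text also states a lower sample number than the 6 arrays of either group. MYOD1 and MYOG, which specify skeletal muscle, were well above background on all 12 arrays, and 0 of the 9 cardiac markers listed were on the array by name.

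Mitochondrial content in muscle is set largely by nuclear genes. The coactivator encoded by PPARGC1A works with transcription factors such as NRF1 to switch on genes for the respiratory chain, which then needs assembly factors, carriers of metabolites and nucleotides across the inner membrane, and enzymes that remove superoxide. In late gestation, glucocorticoids mature fetal organs for birth, and in muscle they also act on protein breakdown and fuel use.

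All signals are log2 units relative to each array's 75th percentile, which lay between 187 and 447 intensity units, with n = 6 arrays per group. The share of probes well above background ran from 66.4% to 76.0% over the arrays. In limma, adjusted by Benjamini-Hochberg across the 10734 tested probes, 0 probes (0.0%) passed an adjusted p of 0.05, the smallest adjusted p being 0.693. Without adjustment, 732 probes (6.82%) had a p under 0.05, of which 230 were higher and 502 lower after cortisol. Differences below are cortisol minus control on this log2 scale, from the limma fit. The median difference was -0.02 over all tested probes and -0.01 over the measured named genes. The arrays lay on 2 slides and form 3 slide-and-row sets of 2 arrays from either group. In whole muscle, fewer cells of a type and less RNA per cell cannot be told apart. Nothing in the labels says more than that the samples are separate fetuses, so the spread is that between these 12 arrays.

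The probes that the results turn on are 60 bases long. PPARGC1A and UCP3 are shown because their probes share bases or give different values, and SLC25A33, COX15 and ENDOG because their group means stood farthest apart among genes whose value did not rest on 1 array. Letters are 5′ to 3′ as the scanner files give them, and capitals mark bases that another probe of the same gene also holds.

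PPARGC1A probe A_70_P002736: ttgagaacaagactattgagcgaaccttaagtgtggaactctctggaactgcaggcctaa
PPARGC1A probe A_70_P049666: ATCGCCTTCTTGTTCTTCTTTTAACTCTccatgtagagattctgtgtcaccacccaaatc
PPARGC1A probe A_70_P049667: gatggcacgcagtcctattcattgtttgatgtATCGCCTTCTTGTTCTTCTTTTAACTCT
UCP3 probe A_70_P002796: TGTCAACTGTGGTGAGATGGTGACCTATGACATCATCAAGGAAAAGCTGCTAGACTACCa
UCP3 probe A_70_P002797: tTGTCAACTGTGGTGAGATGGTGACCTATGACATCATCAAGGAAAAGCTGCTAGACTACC
SLC25A33 probe A_70_P064666: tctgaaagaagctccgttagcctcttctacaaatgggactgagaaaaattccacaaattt
COX15 probe A_70_P068056: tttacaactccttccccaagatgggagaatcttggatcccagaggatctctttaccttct
ENDOG probe A_70_P067991: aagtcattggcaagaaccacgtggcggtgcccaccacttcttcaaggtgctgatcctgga

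Both UCP3 probes share 59 bases, and the last 2 PPARGC1A probes share 28, so neither pair gives independent measurements. A first pair of GLUD1 probes also shares 59 bases, whereas the third GLUD1 probe shares no more than 7 with either. None of the 15 probes was saturated or flagged as an outlier on any array. All were well above background on all 12 arrays except both UCP3 probes on control array 3 and both NRF1 probes on control array 5. Values of a gene are those of its brightest probe by mean signal unless another is named.

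Among the 9 genes, 6 had lower and 3 had higher mean signals after cortisol, with a median log2 fold change of -0.35. This split depends on the probe: PPARGC1A counts as lower at -0.09 with its brightest probe, whereas A_70_P002736 gave 0.33. Over all tested probes, 54.0% were lower. None of the 9 passed an adjusted p of 0.05 in limma, and 4 had an unadjusted p under 0.05, beside 6.82% of all tested probes. In none of them did the 2 groups separate fully. Over all tested probes, all 6 cortisol arrays lay below every control in 34 (0.317%) and above every control in 10 (0.0932%). Since the values chose the genes, nothing is read from these counts.

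**Figure D1:**
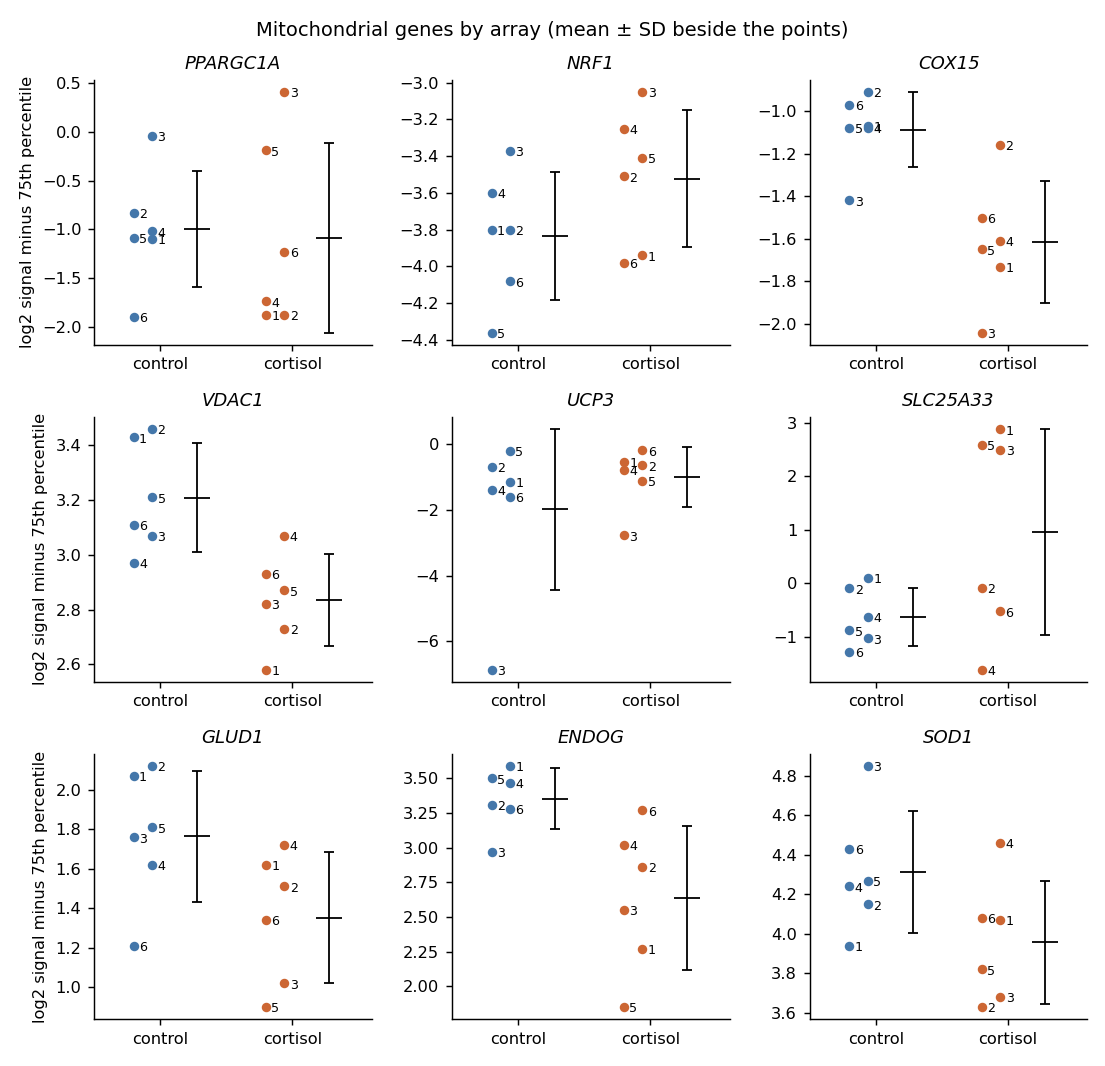
Signal of the 9 genes on each array (y axis: log2 signal minus the array's 75th percentile; each panel has its own scale). Points are arrays, numbered as replicates, with the mean and SD of each group beside them; COX15, VDAC1, GLUD1, ENDOG and SOD1 sit lower after cortisol with overlap, SLC25A33 splits within the cortisol group, and UCP3 is far below the rest on control array 3.

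**Figure D2:**
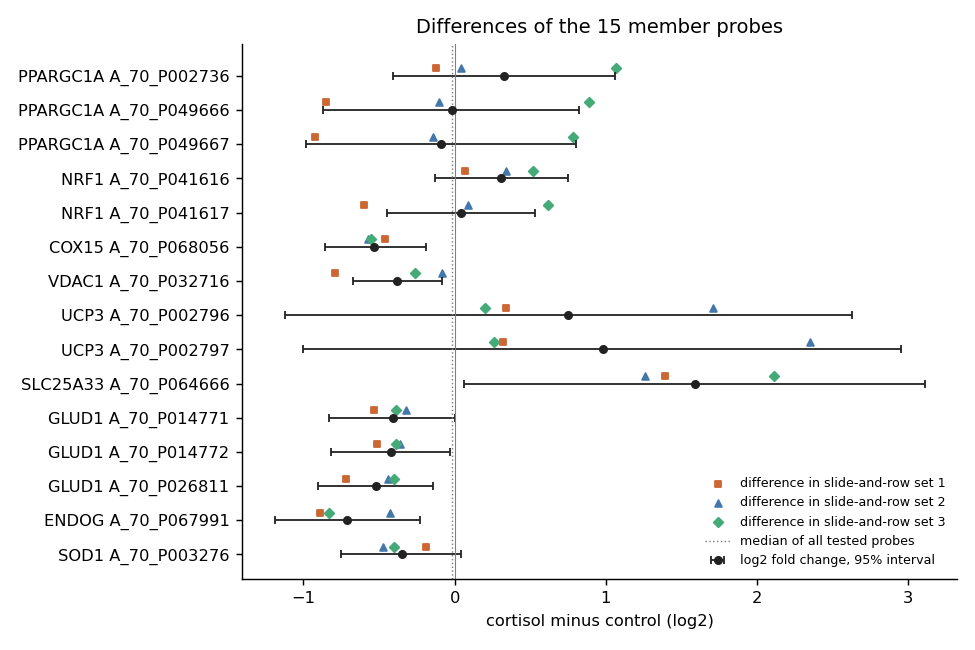
Cortisol minus control on the log2 scale for the 15 probes (black points, with 95% intervals from limma) and the same difference within each of the 3 slide-and-row sets (coloured symbols, 2 control and 2 cortisol arrays each). The dotted line is the median of all tested probes, -0.02. The differences of COX15, VDAC1, GLUD1, ENDOG and SOD1 lie below 0 in every set, and those of PPARGC1A spread to both sides.

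PPARGC1A, the coactivator at the top of the biogenesis programme, had similar group means and a wide spread after cortisol. With its brightest probe, A_70_P049667, controls ran from -1.90 through a median of -1.05 to -0.04, and cortisol arrays from -1.88 through -1.49 to 0.41. Cortisol arrays 3 and 5, at 0.41 and -0.19, were the highest of their group, while arrays 1, 2 and 4 were at -1.88, -1.88 and -1.74. Control array 3, at -0.04, was the highest control, and the groups overlapped. Means were -1.0 ± 0.59 (SD) and -1.09 ± 0.97, a difference of -0.09 (95% interval -0.98 to 0.80).

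The direction for PPARGC1A depended on the probe and on single arrays. Probe A_70_P002736, which shares no more than 7 bases with either of the others, gave 0.33 (95% interval -0.41 to 1.06), and probe A_70_P049666 gave -0.02. Cortisol array 1 read -0.94 with the first and -1.88 with A_70_P049667. Over the 12 arrays these 2 probes had a Pearson r of 0.80 and a Spearman rho of 0.68, as a description. With A_70_P049667 the value turned to 0.10 without control array 3, to 0.07 without cortisol array 1 or 2 and to 0.04 without cortisol array 4, and it was -0.39 without cortisol array 3. Within the 3 sets it was -0.92, -0.14 and 0.78, so no direction is given for this gene.

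NRF1, a transcription factor for nuclear genes of the respiratory chain, was dim. Controls ran from -4.36 through a median of -3.80 to -3.37, and cortisol arrays from -3.98 through -3.46 to -3.05. Cortisol arrays 3 and 4 lay above every control and the other cortisol arrays within the control range. Means were -3.84 ± 0.35 and -3.52 ± 0.37, a difference of 0.31 (95% interval -0.13 to 0.75). The second NRF1 probe, A_70_P041617, gave 0.04 (95% interval -0.45 to 0.53), and with normexp background correction the probes gave -0.03 and -0.10. The second probe also turned to -0.16 without control array 5, where it read -5.23. Neither probe gives a stable direction, and the 2 correlated at a Pearson r of 0.51 over the arrays.

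COX15 encodes an enzyme of heme A synthesis that cytochrome oxidase needs for its assembly, and its signal was lower on the cortisol arrays. Controls ran from -1.42 through a median of -1.07 to -0.91, and cortisol arrays from -2.04 through -1.63 to -1.16. Of the cortisol arrays, 5 lay below every control and only array 2, at -1.16, fell within the control range, above control array 3. Means were -1.09 ± 0.18 and -1.62 ± 0.29, a difference of -0.53 (95% interval -0.86 to -0.19), or 1.44-fold lower. The difference was -0.46, -0.57 and -0.55 in the 3 sets and between -0.62 and -0.44 with each array left out. COX15 was the 1 measured gene of 76 listed for assembly and import, so no neighbour in that process could be set beside it.

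VDAC1 forms the main channel of the outer mitochondrial membrane, through which metabolites and nucleotides pass. Controls ran from 2.97 through 3.16 to 3.46 and cortisol arrays from 2.58 through 2.84 to 3.07. Here too 5 cortisol arrays lay below every control, and array 4 at 3.07 reached the control range. Means were 3.21 ± 0.20 and 2.83 ± 0.17, a difference of -0.38 (95% interval -0.67 to -0.08). The sets differed in size, at -0.79 in the first, -0.08 in the second and -0.26 in the third, while leaving out single arrays kept the value between -0.43 and -0.33.

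SLC25A33 carries pyrimidine nucleotides across the inner membrane for mitochondrial DNA and RNA, and its cortisol arrays fell into separate levels. Control arrays 1 to 6 read 0.11, -0.09, -1.02, -0.62, -0.87 and -1.28. Cortisol arrays 1 to 6 read 2.88, -0.08, 2.49, -1.61, 2.59 and -0.52. Cortisol arrays 1, 3 and 5 were therefore far above every control, arrays 2 and 6 lay within the control range, and array 4 lay below every control. There is 1 high and 1 low cortisol array in each of the 3 sets, and the within-set differences were 1.39, 1.26 and 2.11. Means were -0.63 ± 0.54 and 0.96 ± 1.93, a difference of 1.59 (95% interval 0.06 to 3.11), or 3.00-fold higher. Of all tested probes, 0.186% had a larger absolute log2 fold change, but the values of this comparison chose the gene, so nothing is read from that rank. A group mean stands for neither level seen in the cortisol group, and leaving out 1 array moved the value between 1.20 and 2.10.

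The genes most like SLC25A33 across the arrays, after each group's mean was subtracted, were RABGGTB, PSMD4 and FBXO32, out of 681 other genes compared. Their Pearson r was 0.91, 0.90 and 0.87 and their Spearman rho 0.90, 0.91 and 0.87, and r was 0.86, 0.94 and 0.77 without cortisol arrays 1 and 5. Since the values lie at separate levels, these are a description. FBXO32, the ubiquitin ligase atrogin-1 of muscle atrophy, read 2.66, -0.91, 2.61, -0.86, 2.82 and 0.17 on cortisol arrays 1 to 6, and its controls ran from -1.60 to 0.56. PSMD4, a ubiquitin receptor of the proteasome, read 2.00, 1.67, 2.34, 1.29, 2.04 and 1.62 there, and its controls lay within 1.49 and 1.80. The muscle marker MYOD1 read -0.35, 1.01 and 0.49 on cortisol arrays 1, 3 and 5, below every control (1.63 to 2.27), and 2.59, 2.14 and 2.52 on arrays 2, 4 and 6. MYOG read -0.48 and -0.25 on cortisol arrays 1 and 3, below every control, but 0.84 on array 5, within its control range of 0.41 to 0.97. Over the 3 measured of 7 listed skeletal muscle markers, the summed level ran from 2.27 to 2.64 in controls and from 0.61 to 3.02 after cortisol. Fast-fibre markers did not follow MYOD1: their summed level was 10.78, 11.64 and 11.48 on cortisol arrays 1, 3 and 5. In controls that sum was 9.66 on array 3 and 11.01 to 11.64 on the others. MYH7, the only slow-fibre marker measured, read 0.03, 0.17 and 1.93 on those cortisol arrays and 0.47 to 3.97 in controls. The part of these genes in the SLC25A33 values was not tested.

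**Figure D3:**
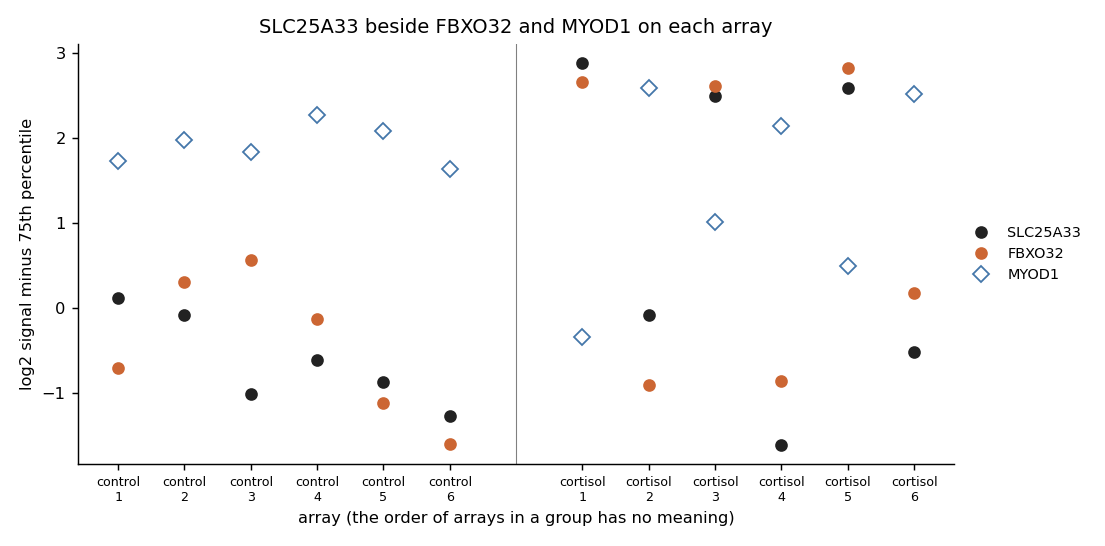
SLC25A33, FBXO32 and MYOD1 on each of the 12 arrays (y axis: log2 signal minus the array's 75th percentile; x axis: arrays by group, in no meaningful order). SLC25A33 and FBXO32 are both at 2.49 or above on cortisol arrays 1, 3 and 5, where MYOD1 is at 1.01 or below.

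UCP3, an inner-membrane carrier of muscle linked to fatty acid use, differed between groups through 1 control array. Controls ran from -6.86 through a median of -1.27 to -0.20, and cortisol arrays from -2.78 through -0.71 to -0.19. Control array 3, at -6.86, stood more than 5 log2 units below the next control and was not well above background, and cortisol array 3, at -2.78, was the lowest of its group. Means were -1.98 ± 2.44 and -1.01 ± 0.92, a difference of 0.98 (95% interval -1.0 to 2.95). Without control array 3 it was 0.00, and -0.14 with the other probe, so the higher cortisol mean rests on that array.

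Control array 3 also differed in fibre-type genes. MYH1 and MYH2, the fast myosin heavy chains, read 0.50 and 0.79 there and at least 4.92 and 4.98 on the other 11 arrays. MYH7, the slow myosin heavy chain, read 3.97 there and between -0.53 and 2.04 elsewhere. The 4 measured of 12 listed fast-fibre markers had a summed level of 9.66 on control array 3, 11.01 to 11.64 on the other controls and 10.78 to 11.64 on cortisol arrays. Cortisol array 3, where UCP3 was also low, read 6.19 for MYH1, so the myosins did not accompany UCP3 on that array. The part of fibre type in the UCP3 values was not tested. TPM1, PGFS and MYH2 were most like UCP3, with a Pearson r of 0.89, 0.87 and 0.86. Without control array 3 and cortisol array 3 these became -0.05, 0.63 and 0.03, so the likeness to TPM1 and MYH2 rests on those arrays.

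**Figure D4:**
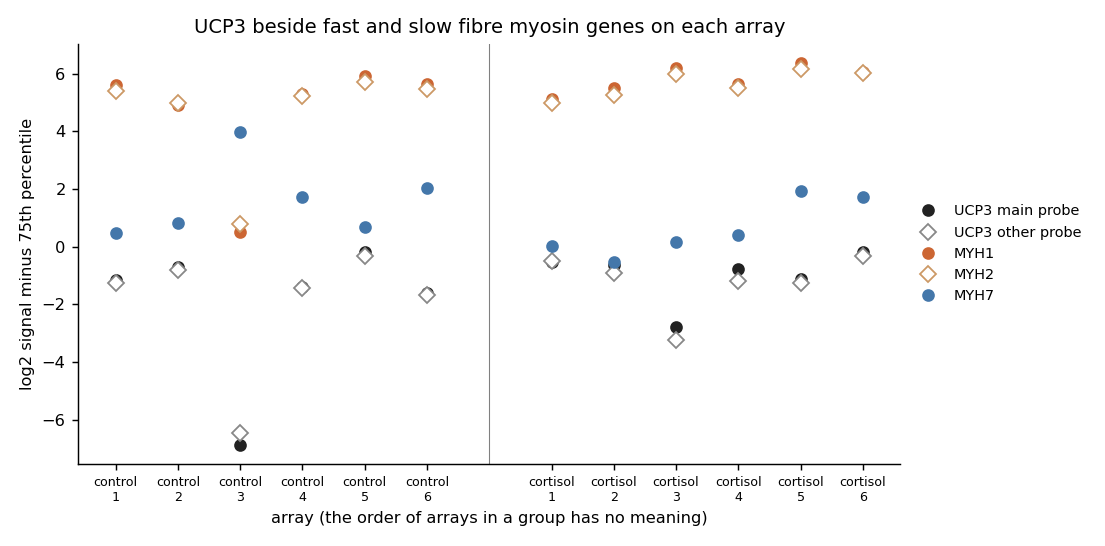
Both UCP3 probes beside the fast myosins MYH1 and MYH2 and the slow myosin MYH7 on each array (y axis: log2 signal minus the array's 75th percentile; x axis: arrays by group, in no meaningful order). On control array 3 UCP3 is at -6.86, MYH1 at 0.50 and MYH7 at 3.97; on cortisol array 3 UCP3 is at -2.78 with MYH1 at 6.19.

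GLUD1, the matrix enzyme that turns glutamate into 2-oxoglutarate, gave lower means with all 3 probes. Controls ran from 1.21 through 1.79 to 2.12 and cortisol arrays from 0.90 through 1.42 to 1.72, and the groups overlapped, with control array 6 at 1.21 and cortisol array 4 at 1.72. Means were 1.77 ± 0.33 and 1.35 ± 0.33, a difference of -0.41 (95% interval -0.83 to 0.00). Its near-identical neighbour gave -0.42. The third probe, A_70_P026811, which has no such overlap, gave -0.52 (95% interval -0.90 to -0.14), and 5 cortisol arrays lay below every control there. Each of the 3 probes was lower after cortisol in every set, and cortisol arrays 3 and 5 were the lowest on all of them.

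ENDOG, a nuclease held in mitochondria that can cut nuclear DNA after its release, showed the most negative difference of the 9. Controls ran from 2.97 through 3.39 to 3.59 and cortisol arrays from 1.85 through 2.71 to 3.27. Of the cortisol arrays, 4 lay below every control, and arrays 4 and 6, at 3.02 and 3.27, fell within the control range. Means were 3.35 ± 0.22 and 2.64 ± 0.52, a difference of -0.71 (95% interval -1.19 to -0.23), or 1.64-fold lower. The difference was -0.89, -0.43 and -0.83 in the 3 sets and between -0.84 and -0.56 with each array left out. The lowest arrays, 5, 1 and 3 at 1.85, 2.27 and 2.55, are those where SLC25A33 was highest. CCR10, SDHD and NDUFA2 were most like ENDOG, with a Pearson r of 0.88, 0.87 and 0.85, which became 0.87, 0.71 and 0.46 without cortisol arrays 5 and 1.

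SOD1, the cytosolic and intermembrane copper-zinc superoxide dismutase, was measured by 1 probe matched through its description. Controls ran from 3.94 through 4.26 to 4.85 and cortisol arrays from 3.63 through 3.95 to 4.46. The groups overlapped, with 3 cortisol arrays below every control and array 4, at 4.46, among the controls. Means were 4.31 ± 0.31 and 3.96 ± 0.31, a difference of -0.35 (95% interval -0.75 to 0.04), which was -0.25 without control array 3, the highest array. ATOX1, a copper chaperone, was the second most like SOD1, after NTN4, with a Pearson r of 0.83 and 0.75 without the 2 arrays farthest from the median.

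Elsewhere among the 9 genes, the most alike were PTCH1 for NRF1 (r of 0.86), SLC66A2 for COX15 (0.90), SLPI for VDAC1 (0.71) and GRM5 for GLUD1 (0.84). These are the highest of 681 correlations each and are given as a description. Among the 9 genes themselves, SLC25A33 was left out because of its separate levels, which leaves 28 pairs. These pairs were added after seeing the data. With a two-sided permutation test, 0 pairs passed an adjusted p of 0.05 and 5 had an unadjusted p under 0.05. The smallest belonged to NRF1 and UCP3, with a Pearson r of -0.67 (permutation p = 0.00505, adjusted 0.141) and a Spearman rho of -0.69 (permutation p = 0.0156, adjusted 0.386). Their r was -0.54 without the 2 arrays farthest from the NRF1 median, control array 5 and cortisol array 3. Control array 3, where UCP3 was not well above background, stayed in that value. PPARGC1A and COX15 followed with an r of -0.70 (permutation p = 0.0117, adjusted 0.164) and a rho of -0.50 (permutation p = 0.101, adjusted 0.386), which became -0.26 without control array 3 and cortisol array 3. PPARGC1A and NRF1, the coactivator and its partner, had an r of 0.59 (permutation p = 0.0417, adjusted 0.238) and a rho of 0.64 (permutation p = 0.0293, adjusted 0.386), which became 0.24 without the same 2 arrays.

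Other genes of these pathways were thinly covered, and none of those measured passed an adjusted p of 0.05 in limma. Of 82 listed subunits of the respiratory chain and ATP synthase, 8 were measured and all 8 had lower means after cortisol, with a median log2 fold change of -0.36 against -0.02 for all tested probes. All 8 were also lower with normexp, quantile or median scaling and in the deposited values. COX5A, a subunit of the oxidase that COX15 helps to build, differed by -0.74 (95% interval -1.24 to -0.24), but by -0.41 with normexp. It had the lowest control mean of the 8, at -1.83. SDHD of complex II differed by -0.41 (95% interval -0.71 to -0.11), and ATP5MC2 of ATP synthase by -0.09 (95% interval -0.39 to 0.22).

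Of 51 listed carriers and channels, 15 were measured, and besides VDAC1, UCP3 and SLC25A33 there were 4 higher and 8 lower means, with a median of -0.13. The muscle adenine nucleotide carrier SLC25A4, which exchanges ADP for ATP, had means of 9.21 ± 0.21 and 8.83 ± 0.22, a difference of -0.37 (95% interval -0.69 to -0.06). SLC25A6, a second such carrier, differed by 0.09 (95% interval -0.23 to 0.41), and SLC25A20, the carnitine carrier, by 0.07 (95% interval -0.35 to 0.48). With normexp SLC25A20 moved to the lower side, which made 3 higher and 9 lower. UCP1 was on the array but not well above background on enough arrays.

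Of 24 listed regulators, 7 were measured. Besides PPARGC1A and NRF1 these were GABPA, PPARA, PRKAA2, CREB1 and YY1, all with lower means, the largest difference being -0.23 for PPARA (95% interval -0.54 to 0.08). GABPA was higher under quantile and median scaling, and GABPA and CREB1 were higher in the deposited values. GABPA, a further factor for respiratory genes, differed by -0.01 in the limma fit.

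**Figure D5:**
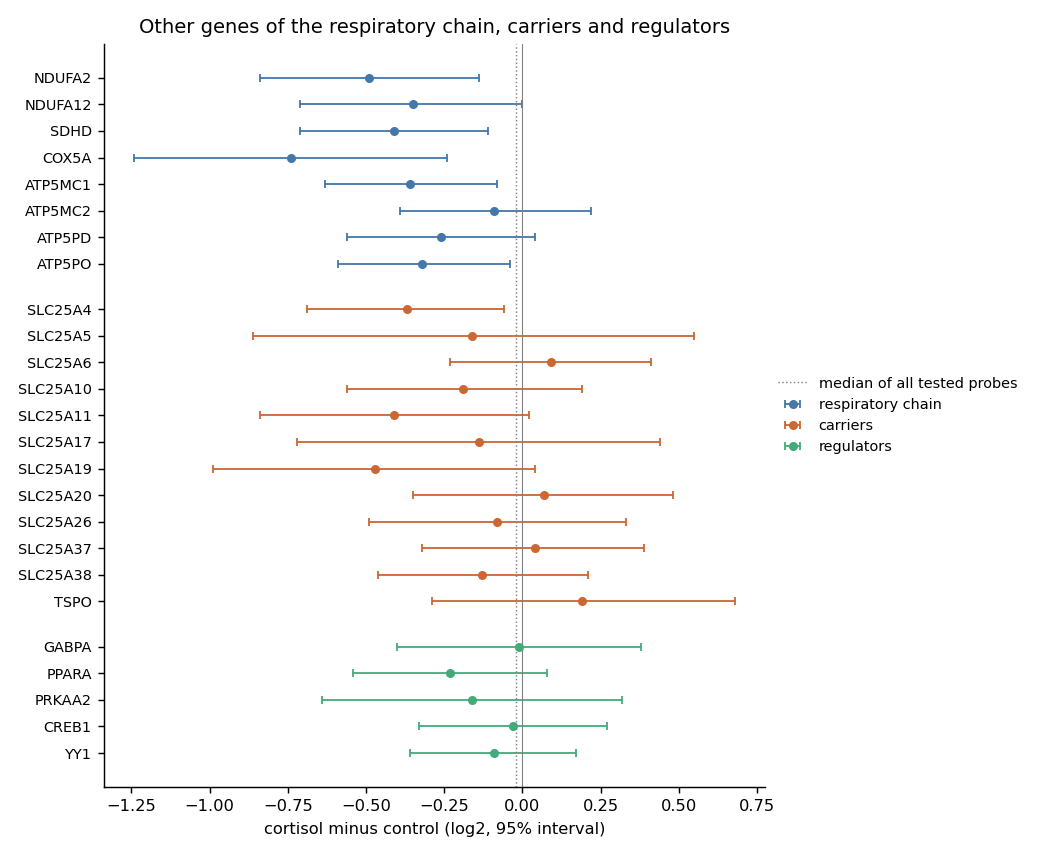
Cortisol minus control on the log2 scale, with 95% intervals from limma, for the measured genes of the respiratory chain, carriers and regulators other than the 9 (n = 6 arrays per group). All 8 respiratory chain genes lie below 0, and the carriers lie on both sides. Of the 5 regulators, GABPA, CREB1 and YY1 lie near the dotted median of all tested probes, -0.02, and PPARA (-0.23) and PRKAA2 (-0.16) lie below it.

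Of 69 listed enzymes of the matrix and related metabolism, 8 were measured. Not all lie in the matrix, as IDH1 and ME1 encode cytosolic enzymes. Besides GLUD1 there were 3 higher and 4 lower means, or 2 and 5 with normexp, where BCKDHA moved from 0.01 to -0.01. IDH1, an isocitrate dehydrogenase, read 0.59 and 0.72 on cortisol arrays 3 and 5, the arrays where GLUD1 was lowest, and 1.83 to 3.19 on the other 10. CPT1A, which admits fatty acids to mitochondria, differed by 0.67 (95% interval -0.40 to 1.74), but by 0.14 without cortisol array 1, which read -0.01. CPT1B, on the same list, was brighter, with a control mean of 2.70 against -3.30 for CPT1A. It differed by -0.21 (95% interval -0.70 to 0.29), and by -0.01 without control array 3. Of 44 listed antioxidant genes, 6 were measured, and besides SOD1 there were 2 higher and 3 lower means, where TXN was among the lower at -0.01 and turned higher under each scaling alternative. SOD2, the matrix superoxide dismutase, had means of 3.17 ± 0.69 and 2.95 ± 0.57, the latter over 5 arrays because the spot of cortisol array 5 was flagged.

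Of 20 listed genes of mitochondrial cell death, 7 were measured. BAX, which opens the outer membrane, had means of -2.88 ± 0.11 and -2.46 ± 0.18, a difference of 0.42 (95% interval 0.15 to 0.69). All 6 cortisol arrays, between -2.70 and -2.24, lay above every control, between -3.03 and -2.72. Of all tested probes, 10 (0.0932%) separated in this way, and the adjusted p of BAX in limma was 0.693. With normexp background correction the BAX difference was 0.07, and it lay between 0.38 and 0.44 with quantile or median scaling and in the deposited values. BCL2, which restrains BAX, differed by 0.54 (95% interval 0.08 to 1.00) with overlap. MCL1, a further restraining protein, differed by 0.48 (95% interval -0.21 to 1.18), BAK1 by -0.09 (95% interval -0.64 to 0.47) and BCL2L1 by less than 0.01 in size, with a sign that changed under other scalings. ENDOG and VDAC1, on the same list, had lower means. Of 32 listed genes of dynamics and the nucleoid, CHCHD3 of the inner-membrane folds was measured besides ENDOG and differed by -0.08 (95% interval -0.50 to 0.33), and by 0.01 under quantile scaling.

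The 3 measured leukocyte markers of 6 listed had summed levels of -1.33 to -0.78 in controls and -0.96 to -0.21 after cortisol, and all 3 had higher means. The 5 measured of 7 listed liver plasma-protein genes ranged from -1.34 to 7.05 in controls and from -1.77 to 1.47 after cortisol, with control arrays 4 and 1 at 7.05 and 5.60. The 4 measured of 7 listed endothelial markers overlapped, at 2.88 to 3.66 and 2.82 to 3.65. The 2 measured of 7 listed erythroid markers, HBB and AHSP, had higher means, with summed levels of 2.50 to 5.16 in controls and 1.1 to 5.63 after cortisol. Of 8 listed adipocyte markers, 5 were measured, with 2 higher and 3 lower means and summed levels of 1.59 to 3.07 and 1.43 to 2.02. Among them FABP4 differed by 1.65 (95% interval 0.20 to 3.10) and cleared background on 2 of the control and 4 of the cortisol arrays. Their part in the values of the 9 genes was not tested.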

How the data were processed

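Per the labels, total RNA of 12 fetal muscles, 6 per group, was labelled with Cy3 and hybridised to 1-colour Agilent arrays, and the submitters' processing notes name Agilent Feature Extraction 10.1.1.1 for reading them. Per the file headers, the deposited scanner files hold spot intensity (processed, mean and background) and, as other values, 0 or 1 flags for outlier, saturated and well-above-background spots. The deposited series table holds log2 values ordered within each array as median signal minus background, with nearly equal quartiles. Their scaling method was not stated in the labels used here.

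Of 15208 non-control spots, outlier-flagged ones were left out, and spots of a probe were averaged to 15008 probes. Log2 processed intensity minus each array's 75th percentile was tested for probes that 6 or more of the 12 arrays flagged as well above background. Groups were compared in R 4.3.3 by limma 3.58.1 (two-sided lmFit and eBayes fit, Benjamini-Hochberg over all tested probes, threshold 0.05, 95% intervals). Probes were named by the array's names, RefSeq, Entrez and a hand-made table, and 13408 of 15008 have no name here. Alternatives were normexp (offset 50), quantile and median scaling, the deposited values, other filters, blocks, single sets, a different variance model and each array left out. Correlations use deviations from group means, with 100000 permutations for pairs. The fitting code was run on simulated data, with added changes larger than any difference of the 9 genes and only in probes of low spread. That run does not show whether differences of the size described here would be found. The summed level of a list is the log2 of its genes' added linear signals. Python 3.11.15, pandas 2.3.3, numpy 2.4.6, scipy 1.17.1 and matplotlib 3.10.9 were used. Precision is limited by the number of arrays: the standard error of a difference had a median of 0.21 (log2). The genes, lists and rules were chosen with earlier results of these data known. All probes of the 9 genes are reported, the pathway genes come from 8 lists, and for each gene the 3 measured named genes with the highest correlation may be named. That result is not reported here for PPARGC1A. IDs in the text are the array's probe IDs, and no genome coordinates are given because the files name no build.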

Additional observations from a re-analysis of the deposited data

Results flagged for a closer look

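Over the 15 probes and 2 groups, 30 groups of 6 arrays were examined for an array far from the others, by the gap to its nearest neighbour over the group's range, and 7 passed Dixon's 95% limit. Chance flags about 1 in 20 such groups, and probes that share bases are not independent. UCP3 on control array 3 was at -6.86 with probe A_70_P002797, against -1.61 for the next control, and at -6.45 with A_70_P002796. On cortisol array 3, UCP3 was at -2.78 and -3.25 with the same probes, the lowest of that group. COX15 on control array 3 was at -1.42, against -1.08 for the next control. NRF1 with probe A_70_P041617 was at -5.23 on control array 5 and at -4.84 on cortisol array 1, each the lowest of its group. The cause of these values was not tested.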

How the results depend on the processing

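In limma, 0 probes passed an adjusted p of 0.05 in 26 of 27 alternative fits, and 1 probe passed in the set of arrays on slide 1 alone. Named genes past it were 0 in all 27 fits. At a threshold of 0.10, tried on the report's own fit, 0 probes passed. The values of this comparison chose the 9 genes, so their stability across alternatives is a description and supports no effect. The median log2 fold change of the 9 genes, -0.35, stayed below 0 throughout. It was -0.14 within the second slide-and-row set alone, between -0.42 and -0.25 with each array left out, -0.23 without SOD1, and -0.20 without control array 3 and cortisol array 3, the last 2 chosen after seeing the data. With a replicate block it was -0.35 and 0 probes passed. Same-numbered arrays had correlations of deviations between -0.11 and 0.25, so the numbers were not taken as pairs. With their brightest probe, 6 of the 9 genes kept their direction in every alternative. PPARGC1A and NRF1 did not, and UCP3 was at 0.00 without control array 3. NRF1 is dim, and its value depends on the background correction. The count of member pairs past an adjusted p of 0.05 stayed at 0 in each alternative run for it. Values near background, as for NRF1 and for UCP3 on control array 3, limit what can be read from them. The probes cover few genes of each pathway, so the lists describe the genes measured and not the pathways.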
